A study of Homo sapiens with 66 samples.

Results

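The axon guidance ligands and receptors were taken as the protein-coding genes whose symbols belong to the ephrin, Eph, semaphorin, plexin, neuropilin, netrin, DCC, UNC5, Slit and Robo families. This gave 70 of the 60603 genes in the count tables, of which 36 encode ligands and 34 encode receptors. They comprise 9 EPHA and 5 EPHB receptors, 5 EFNA and 3 EFNB ephrins, 7 class 3 semaphorins and 13 semaphorins of classes 4 to 7, 9 plexins, 2 neuropilins, 5 netrins, DCC with 4 UNC5 receptors, 4 Robo receptors and 3 Slits. The rule used symbols only and no measured value.

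Guidance cues tell a growing axon where to go. Slits are secreted repellents read by Robo receptors, netrin-1 attracts axons through DCC and repels them where UNC5 receptors take part, and ephrins and Eph receptors signal in both directions when cells touch. Secreted class 3 semaphorins are read by neuropilins together with plexins, whereas membrane-bound semaphorins bind plexins directly. In the spinal cord these systems are known for steering commissural axons across the midline, for keeping motor neuron cell bodies inside the cord and for choosing the path of motor axons into the limb.

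RNA was sequenced from 66 libraries of H9, an established human embryonic stem cell line labelled wild type, in 22 groups of 3. The groups follow one differentiation path, from hESC through neuromesodermal progenitors (hNMP-D1 to hNMP-D4), cells in neural determination medium (NeuDet-D1 to NeuDet-D6) and passaged spinal cord neural progenitors (hSCNPC at passages 5, 10, 20, 30 and 40, written P5 to P40) to cells in motor neuron medium (hMN at days 6, 12, 18, 24, 30 and 42). By the study's methods, hNMP medium held FGF2, CHIR99021, SB431542 and Dorsomorphin after a first day in stem cell medium. NeuDet medium added FGF8 and Compound E. The hSCNPCs were kept in SB431542, CHIR99021 and Purmorphamine, and hMN medium held Purmorphamine, Compound E, BDNF, GDNF and NT-3. All groups come from 1 cell line. The study's statistics section speaks of independent experiments in general, but neither the labels nor that section says so of the RNA libraries, so the p-values measure the spread between these libraries, which may be technical.

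Total counts per library ran from 14142238 to 40204753 with a median of 20676228, and the guidance genes took 0.233% to 0.983% of them. The stage labels were checked against marker lists. All 6 pluripotency markers averaged 1 CPM (a count scaled to library size) or more in hESC and still at hNMP-D4, while 1 of 6 (DPPA4) did at hSCNPC-P10 and hMN-D6. Of the 6 neuromesodermal markers, 4 averaged 1 CPM or more at hNMP-D4. The 6 summed to 340 ± 119 CPM there and to 36.3 ± 3.66 CPM in hESC. Of 5 tested, 4 were called higher at hNMP-D4 than in hESC (adjusted p under 0.05), with a median log2 fold change of 3.4. The defining gene TBXT averaged 4.26 ± 1.65 CPM at hNMP-D4, and WNT3A and MSGN1 were below 1 CPM there. The 6 pan-neuronal markers summed to 3689.9, 3666 and 3615 CPM in the hMN-D6 libraries, against 642, 659.8 and 608 CPM at hSCNPC-P10. The 8 motor neuron markers were all above 1 CPM at hMN-D6 and summed to 73.7, 78.4 and 75.1 CPM there and to 119, 114 and 113 CPM at hMN-D30, where MNX1 averaged 3.80 ± 0.179 and CHAT 3.51 ± 0.437 CPM. PAX2, found in several other classes of spinal neuron, averaged 13.2 ± 0.516 CPM at hSCNPC-P10 and 28.6 ± 0.6 CPM at hMN-D6. PAX2 came from a list of 6 markers of such neurons, of which 5 could be tested between these groups. Of these 5, 2 were called higher and 2 lower at hMN-D6, with a median log2 fold change of 0.51. The name hMN is used here as a label and not as a cell type. In bulk libraries fewer cells of a type and less RNA per cell cannot be told apart.

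The path was described by 8 comparisons, each tested for all genes with edgeR's quasi-likelihood test and Benjamini-Hochberg adjustment, with a gene called at an adjusted p under 0.05. ROBO4, a Robo receptor of blood vessels, was too low to test, which left 69 members in every comparison. At hNMP-D4 versus hESC, 21 members were called higher and 33 lower, where 26.7% and 27.6% of all genes tested were called in those directions. At NeuDet-D6 versus hNMP-D4 the counts were 30 and 27 (30.3% and 34.8% of all genes). Most calls were upward on entry into the passaged state, with 40 members higher and 18 lower at hSCNPC-P5 versus NeuDet-D6 (28.8% and 30.6% of all genes), and a median log2 fold change of 0.55 over the members against -0.02 over all genes. Cell-state markers differed in the same libraries. The 6 neuromesodermal markers, led by CDX2 and SP5, summed to 1116, 1191 and 1066 CPM at NeuDet-D6 and 1.52, 1.81 and 2.22 CPM at hSCNPC-P5. The 6 neural progenitor markers summed to 468, 577 and 466 and 3832, 3837 and 3694 CPM, with all 6 called higher. The floor plate markers, led by SPON1, summed to 336, 311 and 311 and 58.7, 63.4 and 59.9 CPM. The part of these markers in the result was not tested.

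During expansion of the progenitors most calls were downward. At hSCNPC-P20 versus hSCNPC-P10, 13 members were higher and 33 lower (10.9% and 14.6% of all genes). At hSCNPC-P40 versus hSCNPC-P5, 13 were higher and 34 lower (22.8% and 24.1% of all genes). Over the same passages PAX2 averaged 49.7, 13.2, 0.404 and 0.316 CPM at P5, P10, P20 and P40. The 6 mesenchymal markers summed to 67.3, 85.1 and 88.4 CPM at P10 and 9.22, 8.40 and 9.83 CPM at P20, with 4 called lower and 1 higher. They summed to 57.0, 55.1 and 57.3 CPM at P5 and 38.1, 40.6 and 38.9 CPM at P40. Neural progenitor markers averaged a sum of 3788 CPM at P5 and 2684 CPM at P40, with 4 called lower and 1 higher. Glial markers went the other way, from 173 to 472 CPM, with 2 called higher and 2 lower. Neuromesodermal markers also rose, from 1.85 to 92.5 CPM, with 1 called higher and 1 lower. The part of these markers in the counts was not tested. In motor neuron medium 43 members were higher and 20 lower at hMN-D6 versus hSCNPC-P10 (38.5% and 36.7% of all genes) and a median log2 fold change of 0.79 against 0.08 over all genes. That comparison crosses the 2 count tables because no library is labelled day 0 of the hMN series, so table and stage cannot be told apart in it. The 6 cycling markers summed to 1675, 1649.9 and 1675 CPM at hSCNPC-P10 and 86.8, 88.8 and 85.6 CPM at hMN-D6, and their part in the result was not tested. Within the hMN table, 29 members were higher and 33 lower at hMN-D30 versus hMN-D6 (32.9% and 30.5% of all genes), and 17 were higher and 31 lower at hMN-D42 versus hMN-D30 (21.8% and 19.9% of all genes). Neighbouring comparisons share a group, so their counts are not independent of each other.

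**Figure D1:**
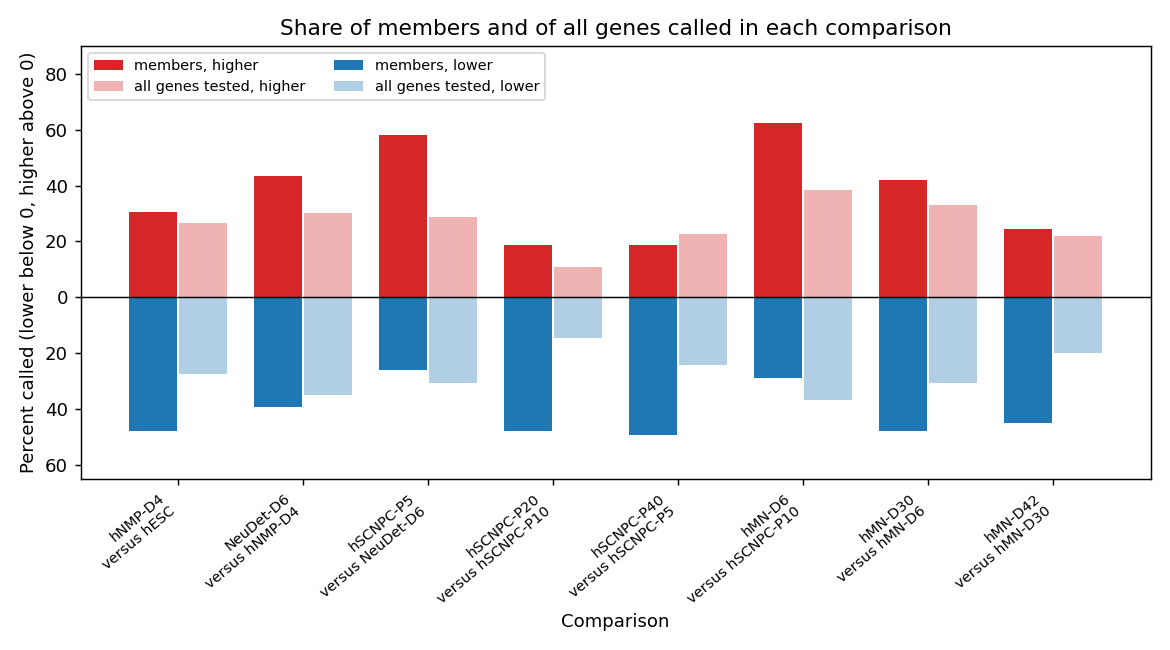
Percent of the 69 tested members (dark bars) and of all genes tested (pale bars) called higher (above 0) or lower (below 0) at an adjusted p under 0.05 in each of the 8 comparisons. The members' higher share exceeds that of all genes most at hSCNPC-P5 versus NeuDet-D6 and at hMN-D6 versus hSCNPC-P10, and their lower share exceeds it most at hSCNPC-P20 versus hSCNPC-P10.

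Levels are given from here on as CPM, scaled by the trimmed mean of M-values (TMM) over all 66 libraries. The number of members at a mean of 10 CPM or more was 38 in hESC, 35 to 40 in the hNMP groups, 40 to 44 in the NeuDet groups, 44 to 48 in the hSCNPC groups and 58 to 62 in the hMN groups. Of the 69 members that reached 1 CPM in some group, 40 (58.0%) had their highest group mean in an hMN group, where 35.5% of the 20036 genes reaching 1 CPM did. NeuDet and hSCNPC groups each held the highest mean of 9 members, hNMP groups of 6 and hESC of 5.

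**Figure D2:**
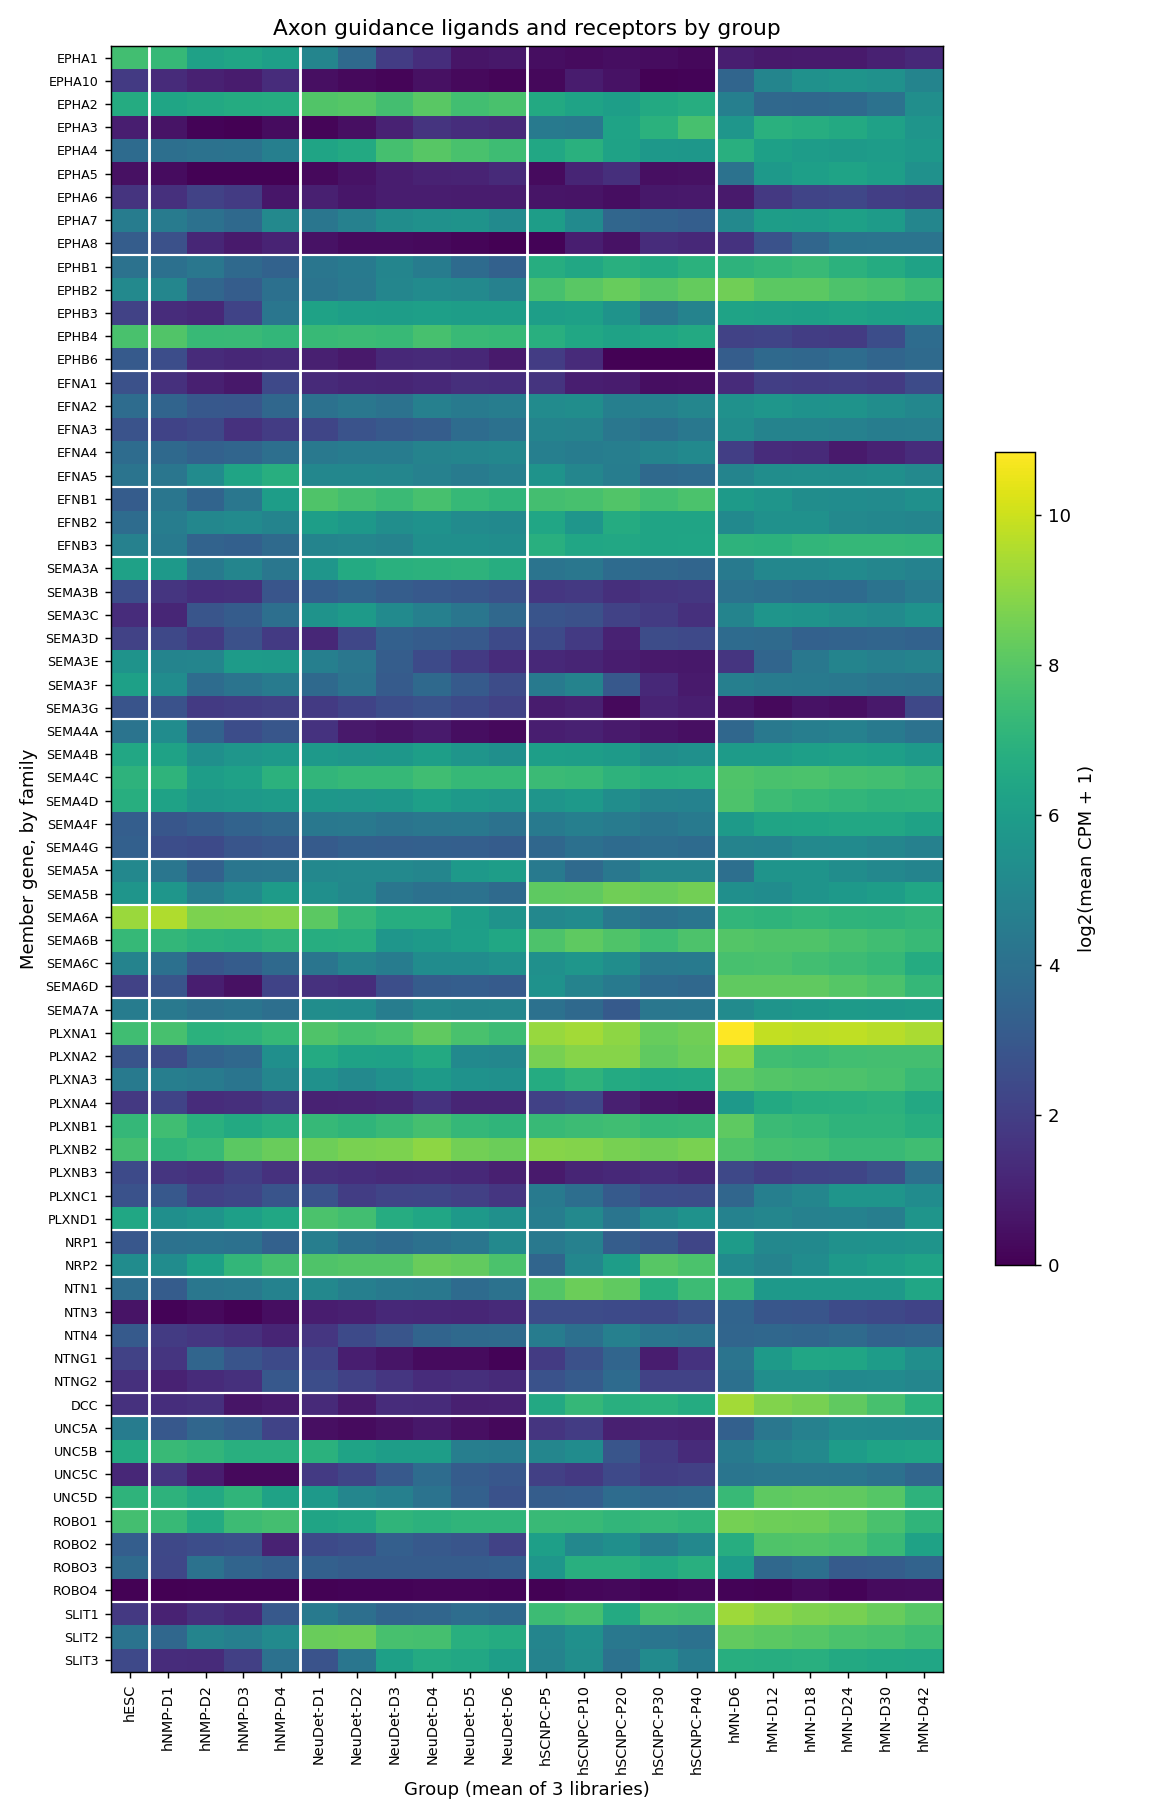
Mean level of each of the 70 members, as log2(mean CPM + 1), in the 22 groups of 3 libraries, with families divided by horizontal lines and stages by vertical lines. Most rows are brightest in the hMN columns on the right, while EPHA1, SEMA6A and EPHB4 are brightest on the left, and ROBO4 is dark throughout.

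To compare families, the CPM of each member was divided by its annotated exon length in kb and summed. The Slits had the largest ratio of highest to lowest group, from 1.26 ± 0.107 CPM per kb at hNMP-D1 to 101 ± 5.77 at hMN-D6 (mean ± SD, n = 3 libraries, as for every ± on a level here). Netrins went from 2.31 ± 0.197 at hNMP-D1 to 59.8 ± 3.23 at hSCNPC-P10, and DCC with the UNC5 receptors from 4.57 ± 0.155 at NeuDet-D6 to 70.2 ± 3.46 at hMN-D18. Plexins had the highest sum of the receptor families at hMN-D6 (291 ± 19.97). Ranks of single members per kb are given by the mean over the 22 groups, and can differ within a group.

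Eph receptors and ephrins had their highest sums at several stages. The EPHB sum was highest at hMN-D6 (69.8 ± 4.81 CPM per kb), overlapping hMN-D18. The EPHA sum was highest at NeuDet-D4 (102 ± 2.89 CPM per kb) and lowest at hMN-D6 (34.3 ± 1.68), and the EFNB sum was highest at hSCNPC-P20 (119 ± 3.86) and lowest at hNMP-D2 (12.5 ± 0.237). Class 3 semaphorins were highest in hESC (30.6 ± 1.23), overlapping NeuDet-D2 (29.1 ± 0.851), and lowest at hSCNPC-P40 (2.80 ± 0.206). Semaphorins of classes 4 to 7 were highest in the first 3 hMN groups, whose means of 229 ± 7.87, 229 ± 6.88 and 230.4 ± 4.70 overlapped.

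**Figure D3:**
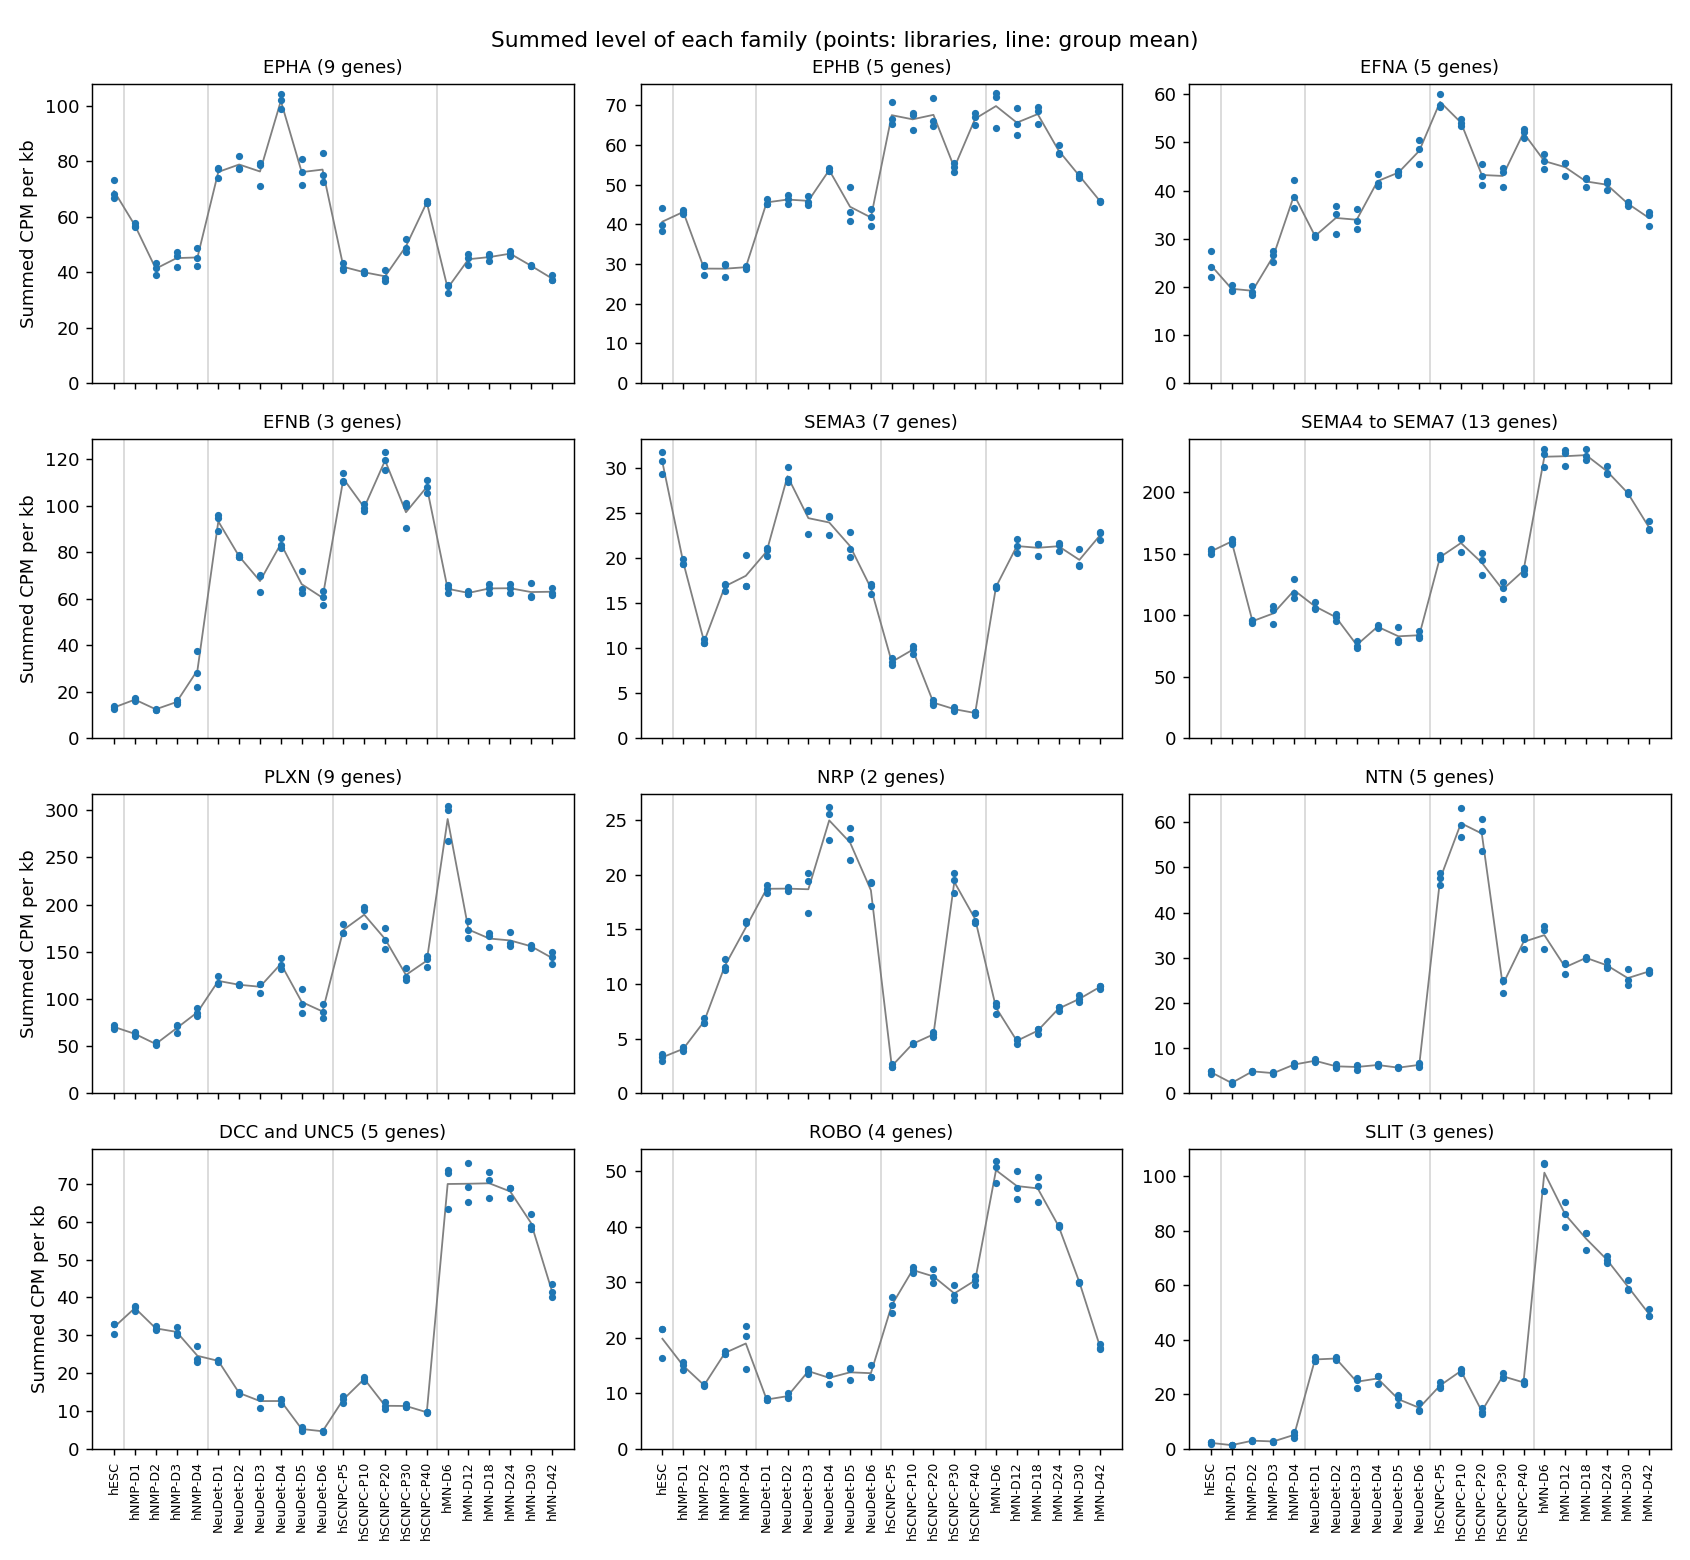
Summed CPM per kb of exon of each family in every library (points) with the group mean (line) over the 22 groups, each panel on its own axis from 0. Slits, Robos, DCC with UNC5, and plexins peak in early hMN groups, netrins at hSCNPC-P10, and neuropilins dip to 2.50 at hSCNPC-P5 between 18.6 at NeuDet-D6 and 19.3 at hSCNPC-P30.

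For SLIT1, DCC and EPHA5, which were all higher at hMN-D6 than at hSCNPC-P10, the 250 bases before the RefSeq transcription start are shown here (GRCh38.p14, read 5′ to 3′ on the gene's strand) so that their promoters can be set side by side. Capitals mark matches on either strand to the E-box forms CAGATG and CAGCTG, the homeodomain core TAATTA or the GC box GGGCGG.
SLIT1 (chr10:97185960-97186209, minus strand): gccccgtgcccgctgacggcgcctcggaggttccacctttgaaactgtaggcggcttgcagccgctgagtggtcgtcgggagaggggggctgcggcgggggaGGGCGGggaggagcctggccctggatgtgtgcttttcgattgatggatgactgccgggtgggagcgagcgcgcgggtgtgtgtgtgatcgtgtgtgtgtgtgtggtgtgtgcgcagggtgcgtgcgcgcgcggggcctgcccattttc
DCC (chr18:52339947-52340196, plus strand): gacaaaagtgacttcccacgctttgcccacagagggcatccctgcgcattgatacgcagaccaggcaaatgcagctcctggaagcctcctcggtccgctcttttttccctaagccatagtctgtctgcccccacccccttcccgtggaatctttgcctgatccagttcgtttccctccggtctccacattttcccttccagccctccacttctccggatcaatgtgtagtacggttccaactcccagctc
EPHA5 (chr4:65670490-65670739, minus strand): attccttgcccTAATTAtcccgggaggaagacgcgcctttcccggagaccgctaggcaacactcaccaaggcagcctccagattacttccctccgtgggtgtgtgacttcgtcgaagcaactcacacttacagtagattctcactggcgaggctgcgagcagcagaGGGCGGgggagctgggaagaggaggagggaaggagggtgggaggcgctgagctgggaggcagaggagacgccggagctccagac
The window of SLIT1 holds 1 GC box, that of EPHA5 a GC box and a TAATTA, and that of DCC none of the 4 motifs. Their GC contents are 68.4%, 61.2% and 56.0%, and the median is 64.4% over the 59 members found in the RefSeq table and searched. Over all 59, GGGCGG was found in 42 (71.2%), against 56.7% of the windows of 15323 protein-coding genes, CAGCTG in 7 (11.9% against 13.3%), CAGATG in 4 (6.78% against 9.74%) and TAATTA in 1 (1.69% against 3.09%). These are matches of letters and say nothing of binding.

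SLIT1 (ENSG00000187122, chr10:96998038-97185959 on hg38, minus strand) encodes a secreted repellent of the nervous system. It was at 10.97, 11.3 and 13.5 CPM in the NeuDet-D6 libraries and at 169, 177 and 162 CPM at hSCNPC-P5 (log2 fold change 3.88 ± 0.15, adjusted p = 2.67e-22, with the standard error after ±). It was at 203, 192 and 205 CPM at hSCNPC-P10 and 571, 624 and 633 CPM at hMN-D6 (log2 fold change 1.53 ± 0.04, adjusted p = 2.33e-34). Before passaging no group mean of SLIT1 exceeded 20.6 CPM (NeuDet-D1), and after hMN-D6 no library reached the lowest of hMN-D6. The mean was 322 ± 12.3 CPM at hMN-D30 (log2 fold change -0.93 ± 0.04, adjusted p = 3.15e-25 against hMN-D6) and 253 ± 6.002 CPM at hMN-D42 (log2 fold change -0.32 ± 0.04, adjusted p = 1.19e-08 against hMN-D30).

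SLIT2, the main Slit of the floor plate and motor column, was also high before passaging. It averaged 332 ± 8.51 CPM at NeuDet-D1 and 334 ± 5.37 CPM at NeuDet-D2, and its libraries stood at 95.7, 88.1 and 115 CPM at NeuDet-D6 and 27.9, 31.4 and 30.2 CPM at hSCNPC-P5 (log2 fold change -1.70 ± 0.15, adjusted p = 2.68e-12). In motor neuron medium it rose from 40.6, 44.2 and 42.5 to 277, 312 and 307 CPM (log2 fold change 2.75 ± 0.05, adjusted p = 7.29e-43). SLIT3, the lowest Slit per kb over all groups, took the same order, from 62.8, 66.2 and 70.2 CPM at NeuDet-D6 and 40.4, 39.2 and 40.4 CPM at hSCNPC-P10 to 101, 113 and 111 CPM at hMN-D6 (log2 fold change 1.37 ± 0.05, adjusted p = 1.12e-29). All 3 Slits were called lower at hSCNPC-P20 than at hSCNPC-P10 (14.6% of all genes) and lower at hMN-D30 than at hMN-D6 (30.5% of all genes).

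The Robo receptors each had a course of their own. ROBO1, the most abundant of them per kb over all groups, ranged from a mean of 80.2 CPM at NeuDet-D1 to 385 CPM at hMN-D6. It rose from 157, 152 and 157 to 359, 394 and 400.4 CPM on entry into motor neuron medium (log2 fold change 1.23 ± 0.04, adjusted p = 2.19e-30). ROBO2 did not exceed a mean of 8.63 CPM before passaging, with 6.88, 8.85 and 9.28 CPM in hESC and 1.15, 1.11 and 0.847 CPM at hNMP-D4 (log2 fold change -3.03 ± 0.20, adjusted p = 7.04e-19). It then went from 3.61, 2.88 and 3.86 CPM at NeuDet-D6 to 62.02, 73.3 and 67.7 CPM at hSCNPC-P5 (log2 fold change 4.35 ± 0.14, adjusted p = 3.72e-33). Its highest group mean was 236 ± 11.3 CPM at hMN-D18. ROBO2 stood at 160.4, 163 and 164 CPM at hMN-D30 and 73.6, 71.2 and 76.8 CPM at hMN-D42 (log2 fold change -1.12 ± 0.04, adjusted p = 8.08e-26).

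ROBO3 (ENSG00000154134, chr11:124865432-124881471, plus strand), the Robo that lets commissural axons cross the midline, was highest in the progenitors. Its libraries held 8.26, 8.30 and 8.56 CPM at NeuDet-D6, 53.4, 49.3 and 48.3 CPM at hSCNPC-P5 (log2 fold change 2.63 ± 0.09, adjusted p = 4.61e-31) and 117, 106 and 113 CPM at hSCNPC-P40 (log2 fold change 1.18 ± 0.08, adjusted p = 4.03e-18 against P5). The mean was already 112.8 CPM at hSCNPC-P10, its highest group, whose libraries overlapped those of P40. In hMN cells it was at 64.97, 61.2 and 61.96 CPM on day 6 and 8.16, 7.91 and 8.57 CPM on day 30 (log2 fold change -2.94 ± 0.07, adjusted p = 8.11e-37). Most of that difference lay between hMN-D6 and hMN-D12, where the mean went from 62.7 ± 2.001 to 11.8 ± 1.601 CPM, whereas ROBO2 went from 107 ± 5.23 to 230.4 ± 10.8 CPM over the same interval. In neither gene did the libraries of these days overlap. ROBO4, the lowest Robo per kb over all groups, stood at 0.304, 0.297 and 0.196 CPM at hMN-D42, its highest group.

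**Figure D4:**
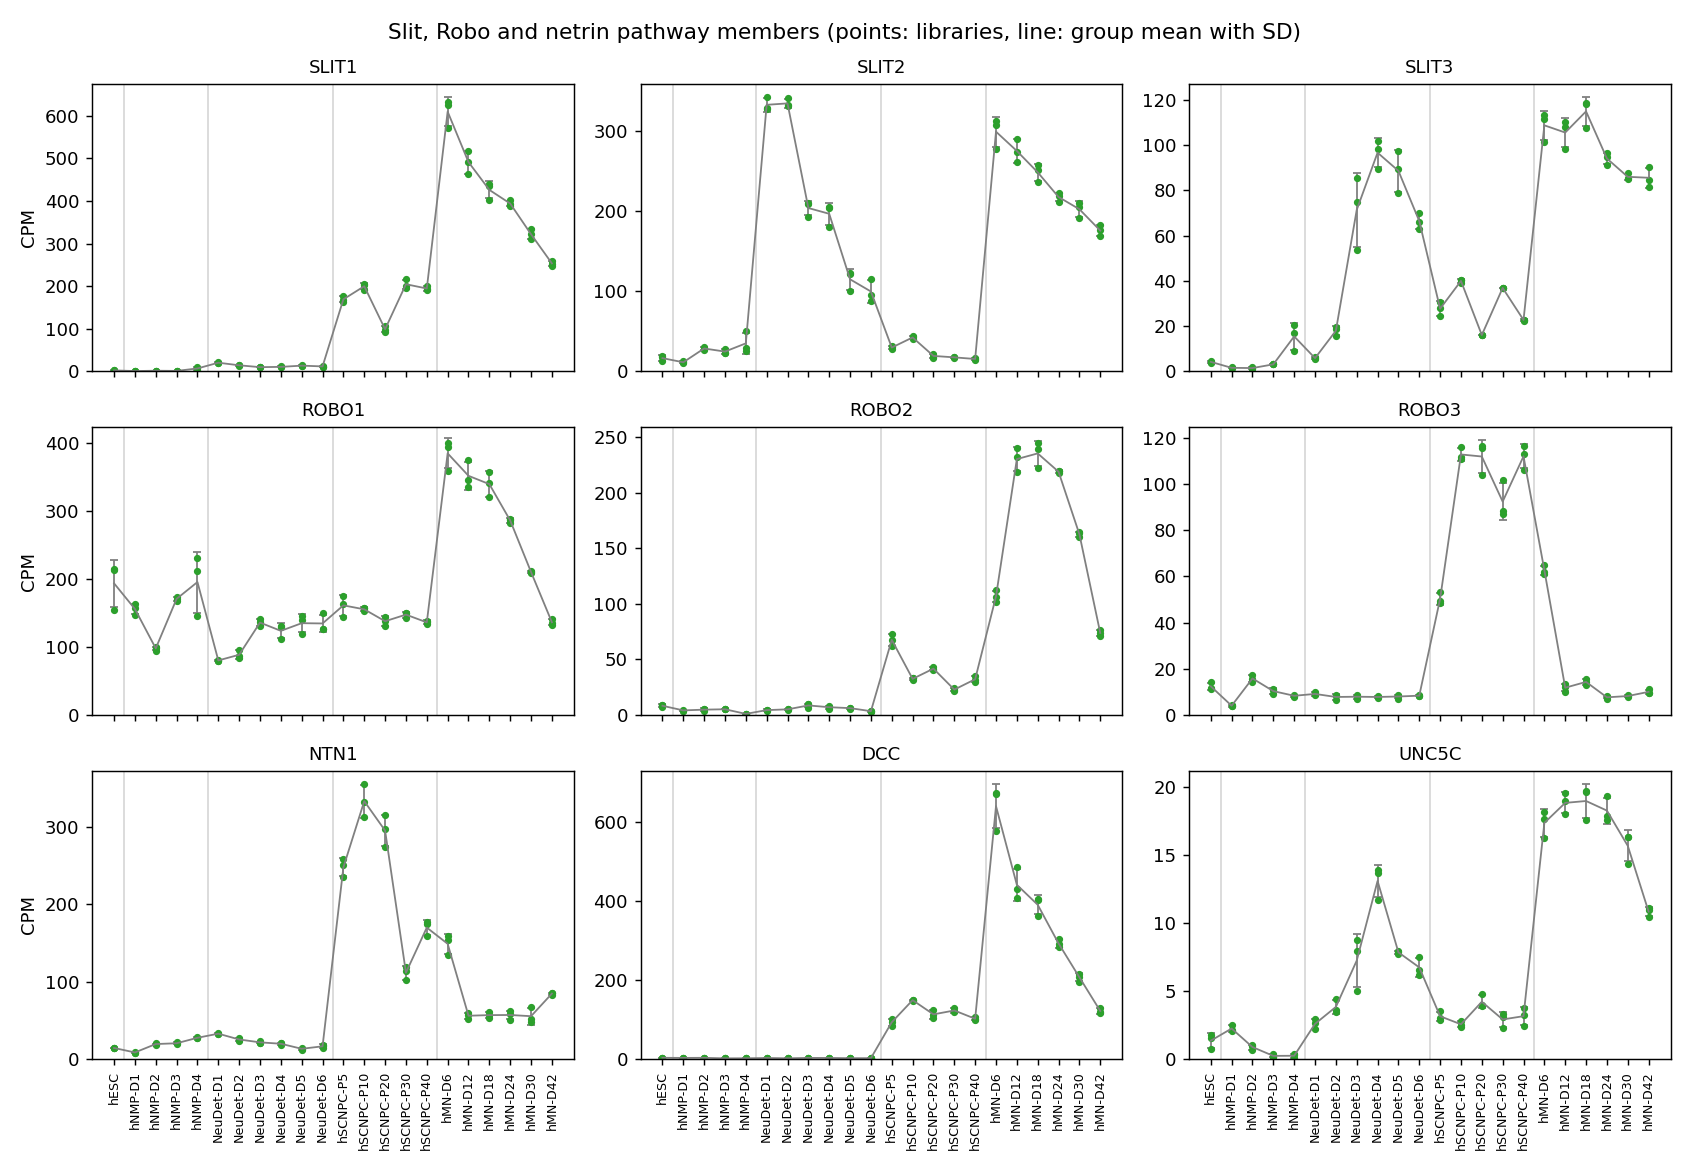
CPM of Slit, Robo and netrin pathway members in every library (points), with group means and SD (line and bars, n = 3), over the 22 groups. SLIT1, ROBO1 and DCC are highest at hMN-D6, ROBO2 at hMN-D18, and ROBO3 and NTN1 are high in hSCNPC groups and lower in later hMN groups.

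NTN1 (ENSG00000065320, chr17:9021510-9244000, plus strand) encodes netrin-1, and DCC (ENSG00000187323, chr18:52340197-53535899, plus strand) its attractive receptor, and both rose at the start of passaging. NTN1 was at 13.3, 16.4 and 17.995 CPM at NeuDet-D6 and 235, 258 and 251 CPM at hSCNPC-P5 (log2 fold change 4.01 ± 0.08, adjusted p = 3.06e-42). DCC was at 0.789, 1.04 and 1.18 and 82.6, 100.1 and 93.4 CPM (log2 fold change 6.58 ± 0.13, adjusted p = 6.19e-42). They parted in motor neuron medium. NTN1 fell from 333, 314 and 356 CPM at hSCNPC-P10 to 135, 159 and 153 CPM at hMN-D6 (log2 fold change -1.24 ± 0.10, adjusted p = 1.16e-08). DCC rose from 149, 147 and 148 to 576, 673 and 670.3 CPM (log2 fold change 2.04 ± 0.06, adjusted p = 1.11e-23). No library of the ligand or of the receptor overlapped between these groups.

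Both were lower again by hMN-D30. NTN1 stood at 67.4, 46.9 and 50.7 CPM (log2 fold change -1.44 ± 0.11, adjusted p = 7.13e-09 against hMN-D6). DCC stood at 215, 195 and 208 CPM (log2 fold change -1.64 ± 0.06, adjusted p = 3.51e-21). At hMN-D42 DCC was at 117, 117 and 128 CPM (log2 fold change -0.75 ± 0.06, adjusted p = 8.98e-12). The ligand took the other direction from the receptor in this interval. NTN1 was at 85.1, 84.9 and 82.8 CPM (log2 fold change 0.64 ± 0.11, adjusted p = 2.35e-04). The 6 floor plate markers, led by SPON1, summed to 50.9, 26.1 and 30.6 CPM at hMN-D30 and 63.9, 67.3 and 69.03 CPM at hMN-D42, with 5 of 6 above 1 CPM in both. Their order over the hMN-D30 libraries was that of NTN1, but over the hMN-D42 libraries it was the reverse. The part of these markers in the result was not tested. Of these markers only SPON1 reached 1 CPM at hSCNPC-P10, the group with the highest NTN1, where SHH averaged 0.317 ± 0.0705 CPM and FOXA2 0.0169 ± 0.0292 CPM.

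The other netrins were lower than NTN1 per kb over all groups, though at NeuDet-D6 NTN4 averaged 2.86 and NTN1 2.48 CPM per kb. NTN4, a netrin of basement membranes, fell from 6.23, 8.02 and 7.66 CPM in hESC to 0.783, 1.68 and 1.02 CPM at hNMP-D4 (log2 fold change -2.67 ± 0.17, adjusted p = 3.18e-19). It stood at 12.6, 12.6 and 12.3 CPM at NeuDet-D6 (log2 fold change 3.37 ± 0.16, adjusted p = 2.70e-25). NTN3, the lowest netrin per kb over all groups, was at 8.71, 11.1 and 11.4 CPM at hMN-D6 and 3.92, 3.50 and 4.67 CPM at hMN-D30 (log2 fold change -1.38 ± 0.13, adjusted p = 3.23e-13). NTNG1 and NTNG2 encode netrins that are anchored in the membrane and do not bind DCC. These had their highest means in hMN groups, NTNG1 at hMN-D18 (84.1 ± 2.65 CPM) and NTNG2 at hMN-D12 (40.5 ± 1.07 CPM). NTNG1 had also gone from 5.71, 5.63 and 4.86 CPM at hSCNPC-P10 to 9.75, 11.4 and 10.6 CPM at hSCNPC-P20 (log2 fold change 1.00 ± 0.15, adjusted p = 2.99e-07). All 5 netrins were called higher at hSCNPC-P5 than at NeuDet-D6, where 28.8% of all genes were.

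The UNC5 receptors, which turn the response to netrin into repulsion, differed among themselves. UNC5D was at 72.4, 71.1 and 82.4 CPM at hNMP-D4 and 5.61, 5.07 and 6.07 CPM at NeuDet-D6 (log2 fold change -3.83 ± 0.13, adjusted p = 1.50e-28). It was at 7.70, 8.25 and 9.27 CPM at hSCNPC-P10 and 145, 163 and 162 CPM at hMN-D6 (log2 fold change 4.15 ± 0.06, adjusted p = 2.25e-45). It averaged 299 ± 12.98 CPM at hMN-D18, and went from 257, 247 and 243 CPM at hMN-D30 to 127, 124 and 132 CPM at hMN-D42 (log2 fold change -0.94 ± 0.04, adjusted p = 6.88e-23). UNC5D also averaged 133 ± 21.1 CPM in hESC, so that its lowest levels lay in the progenitors between. UNC5C, the lowest of the 4 per kb over all groups, rose from 0.313, 0.263 and 0.0423 CPM at hNMP-D4 to 6.51, 6.11 and 7.49 CPM at NeuDet-D6 (log2 fold change 4.999 ± 0.30, adjusted p = 6.10e-21). It rose again from 2.33, 2.75 and 2.48 CPM at hSCNPC-P10 to 16.2, 18.2 and 17.6 CPM at hMN-D6 (log2 fold change 2.72 ± 0.10, adjusted p = 1.12e-28).

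UNC5B, the most abundant UNC5 per kb over all groups, fell during expansion. It stood at 27.7, 32.996 and 30.6 CPM at hSCNPC-P5, 37.5, 34.7 and 40.1 at P10, 7.15, 6.31 and 5.45 at P20 and 1.82, 1.64 and 1.19 at P40 (log2 fold change -2.53 ± 0.10, adjusted p = 6.81e-27 for P20 versus P10, and log2 fold change -4.30 ± 0.13, adjusted p = 5.34e-33 for P40 versus P5). It was at a mean of 77.6 ± 4.94 CPM at hMN-D30. UNC5A fell from 23.5, 21.98 and 21.5 CPM in hESC to 2.25, 4.74 and 3.51 CPM at hNMP-D4 (log2 fold change -2.69 ± 0.21, adjusted p = 7.45e-16). It did not exceed a mean of 0.636 CPM in the NeuDet groups, and was highest at hMN-D24 (34.96 ± 2.41 CPM).

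Ephrin-B ligands span the membrane and signal into the cell that bears them. EFNB1, the most abundant ephrin per kb over all groups, rose from 7.80, 7.97 and 8.28 CPM in hESC to 89.3, 61.1 and 44.1 CPM at hNMP-D4 (log2 fold change 3.00 ± 0.14, adjusted p = 2.54e-20). The neuromesodermal markers of those hNMP-D4 libraries summed to 473, 302 and 245 CPM, in the same order as EFNB1, and their part in the result was not tested. EFNB1 averaged 234 ± 9.38 CPM at NeuDet-D1, the next group. The hSCNPC-P10 and hMN-D6 libraries stood at 207, 206 and 207 and 55.003, 62.3 and 60.6 CPM (log2 fold change -1.87 ± 0.04, adjusted p = 1.94e-37). EFNB1 was thus lowest in hESC and highest in progenitors, and hMN-D6 lay between them. At hMN-D6 EFNB1 averaged 17.96 CPM per kb and EFNB3 39.4.

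EFNB2 and EFNB3 were called in opposite directions at hMN-D6. EFNB2, the lowest of the 3 per kb over all groups, was at 51.6, 49.97 and 51.3 CPM at hSCNPC-P10 and 98.7, 101 and 98.9 CPM at hSCNPC-P20 (log2 fold change 1.00 ± 0.07, adjusted p = 3.24e-17). It was at 35.1, 34.7 and 34.4 CPM at hMN-D6 (log2 fold change -0.63 ± 0.05, adjusted p = 8.06e-15). It had stood at 82.9, 87.1 and 84.8 CPM at hSCNPC-P5, so it did not rise steadily with passage, and it was lower at hMN-D6. EFNB3, which has a known role at the spinal midline, rose from 36.1, 38.1 and 41.5 CPM at NeuDet-D6 to 115, 116 and 111 CPM at hSCNPC-P5 (log2 fold change 1.61 ± 0.09, adjusted p = 5.58e-22). It rose again from 88.7, 81.996 and 84.8 to 125, 129 and 126 CPM at hMN-D6 (log2 fold change 0.50 ± 0.05, adjusted p = 1.49e-13). Another annotated gene shares 36.4% of the exon of EFNB2, and whether reads were counted by strand is not stated, so its counts are less certain.

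EPHB receptors bind mostly ephrin-B ligands. EPHB2, an axonal receptor of the class, was at 24.6, 26.3 and 27.4 CPM at NeuDet-D6, 191, 217 and 199 CPM at hSCNPC-P5 (log2 fold change 3.00 ± 0.10, adjusted p = 3.35e-30) and 321, 380.4 and 383 CPM at hMN-D6, its highest group mean, whose libraries overlapped those of hSCNPC-P20. EPHB4, a receptor known from vessels and the most abundant EPHB per kb over all groups, fell from 89.2, 84.9 and 88.4 CPM at hSCNPC-P10 to 3.45, 3.51 and 3.30 CPM at hMN-D6 (log2 fold change -4.75 ± 0.14, adjusted p = 1.48e-19). No other member named for that comparison fell by as much, and at hMN-D6 EPHB4 averaged 0.532 CPM per kb and EPHB2 28.9. EPHB1 and EPHB3 averaged 128 ± 9.05 and 76.9 ± 2.33 CPM at hMN-D6.

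EPHB6, a kinase-dead receptor and the lowest EPHB per kb over all groups, had 152 counts over the hSCNPC-P5 libraries and 0 over those of hSCNPC-P40, a level at least 53.8-fold lower when 3 counts over the group are taken as the floor. In hSCNPC-P10 it had 88 counts in all and at hMN-D6 508, and its mean was 10.4 ± 0.547 CPM at hMN-D30.

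Ephrin-A ligands are held on the membrane by a lipid anchor. EFNA5, a repellent for many EphA-bearing axons, rose from 16.1, 16.8 and 17.9 CPM in hESC to 95.2, 122 and 115 CPM at hNMP-D4 (log2 fold change 2.70 ± 0.08, adjusted p = 7.90e-33), its highest group. It fell to 24.7, 24.9 and 25.7 CPM at NeuDet-D6 (log2 fold change -2.21 ± 0.08, adjusted p = 4.12e-31). It then averaged 46.9 ± 5.68 CPM at hSCNPC-P5, 13.03 ± 0.391 CPM at hSCNPC-P40 and 41.01 ± 0.379 CPM at hMN-D30. The stages after hNMP-D4 all lay below it. EFNA4, the most abundant EFNA per kb over all groups, fell from 22.1, 22.99 and 22.7 CPM at hSCNPC-P10 to 3.12, 2.999 and 3.15 CPM at hMN-D6 (log2 fold change -2.94 ± 0.14, adjusted p = 4.80e-25). At hMN-D6 EFNA4 averaged 2.46 CPM per kb and EFNA3 20.1. EFNA3 shares 43.9% of its exon, and EFNA4 a smaller part, with an annotated readthrough of both, so reads may be split between them. EFNA1, the lowest EFNA per kb over all groups, stood at 0.803, 0.982 and 0.81 CPM at hSCNPC-P10 and 1.26, 1.76 and 1.55 CPM at hMN-D6 (log2 fold change 0.77 ± 0.23, adjusted p = 0.00249). EFNA2 ranged from 6.71 CPM at hNMP-D3 to 51.5 CPM at hMN-D12.

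Different EPHA receptors were high at different stages. EPHA1 averaged 186 ± 7.90 CPM in hESC and went from 70.4, 64.8 and 71.2 CPM at hNMP-D4 to 0.423, 0.587 and 0.841 CPM at NeuDet-D6 (log2 fold change -6.90 ± 0.15, adjusted p = 3.75e-41). EPHA4, a receptor that directs motor axons to the dorsal limb, rose from 38.9, 21.6 and 12.9 to 170.2, 176 and 183 CPM (log2 fold change 2.80 ± 0.17, adjusted p = 1.53e-16). EPHA2, the most abundant EPHA per kb over all groups, was highest at NeuDet-D4 (264 ± 4.60 CPM), but at hMN-D6 it averaged 5.87 CPM per kb and EPHA4 15.1. The hNMP-D4 libraries of EPHA4 were in the same order as those of EFNB1.

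EPHA3 and EPHA7, which both bind ephrin-A ligands, were called in opposite directions with passage. EPHA3 stood at 20.3, 20.8 and 20.8 CPM at hSCNPC-P5, 19.3, 21.2 and 17.3 at P10, 80.5, 75.05 and 75.4 at P20 and 201, 214 and 202 at P40 (log2 fold change 2.03 ± 0.14, adjusted p = 8.38e-15 for P20 versus P10, and log2 fold change 3.34 ± 0.15, adjusted p = 6.51e-22 for P40 versus P5). EPHA7 stood at 60.04, 63.7 and 67.9, 36.2, 35.04 and 34.2, 10.97, 11.1 and 10.3 and 9.17, 7.88 and 8.14 CPM in the same groups (log2 fold change -1.67 ± 0.12, adjusted p = 1.00e-15, and log2 fold change -2.91 ± 0.13, adjusted p = 5.97e-25). The rule by which both were named fixed the order of P20 against P10 and of P40 against P5. Beyond it, EPHA3 libraries at P20 lay above those at P5, and those at P40 above those at P10. EPHA7 libraries lay below in both of these pairs. EPHA7 was at 33.2, 32.3 and 34.1 CPM at hMN-D6 and 64.2, 59.7 and 58.3 CPM at hMN-D30 (log2 fold change 0.87 ± 0.05, adjusted p = 2.51e-20). It was at 30.3, 30.9 and 30.4 CPM at hMN-D42 (log2 fold change -0.97 ± 0.05, adjusted p = 8.75e-21).

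EPHA10, EPHA5 and EPHA8 were higher in hMN cells. EPHA10, a kinase-dead receptor, was at 0.888, 0.917 and 0.456 CPM at hSCNPC-P10, 10.4, 11.7 and 9.36 CPM at hMN-D6 (log2 fold change 3.73 ± 0.15, adjusted p = 1.05e-27) and 42.7, 43.4 and 43.5 CPM at hMN-D30 (log2 fold change 2.03 ± 0.07, adjusted p = 2.00e-30). EPHA5 (ENSG00000145242, chr4:65319563-65670495, minus strand), a receptor known from the nervous system, went from 1.31, 0.851 and 1.37 CPM at hSCNPC-P10 to 15.7, 16.2 and 16.9 CPM at hMN-D6 (log2 fold change 3.67 ± 0.15, adjusted p = 1.11e-24). Its mean was 76.8 ± 6.44 CPM at hMN-D24. EPHA8 fell from 9.10, 7.86 and 7.35 CPM in hESC to 1.57, 1.16 and 0.677 CPM at hNMP-D4 (log2 fold change -2.87 ± 0.31, adjusted p = 1.75e-11). It rose from 1.75, 2.44 and 1.94 CPM at hMN-D6 to 15.6, 17.7 and 17.1 CPM at hMN-D30 (log2 fold change 3.01 ± 0.12, adjusted p = 6.89e-27). EPHA6, the lowest EPHA per kb over all groups, shares part of its exon with another gene. It stood at 0.296, 0.524 and 0.658 CPM at hSCNPC-P10 and 0.931, 0.643 and 0.582 CPM at hMN-D6 (log2 fold change 0.49 ± 0.34, adjusted p = 0.186). Of the 9 EPHA genes, 6 were called higher and 2 lower at hMN-D30 versus hMN-D6 (32.9% and 30.5% of all genes). At hMN-D42 versus hMN-D30, 1 was higher and 5 lower (21.8% and 19.9% of all genes).

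**Figure D5:**
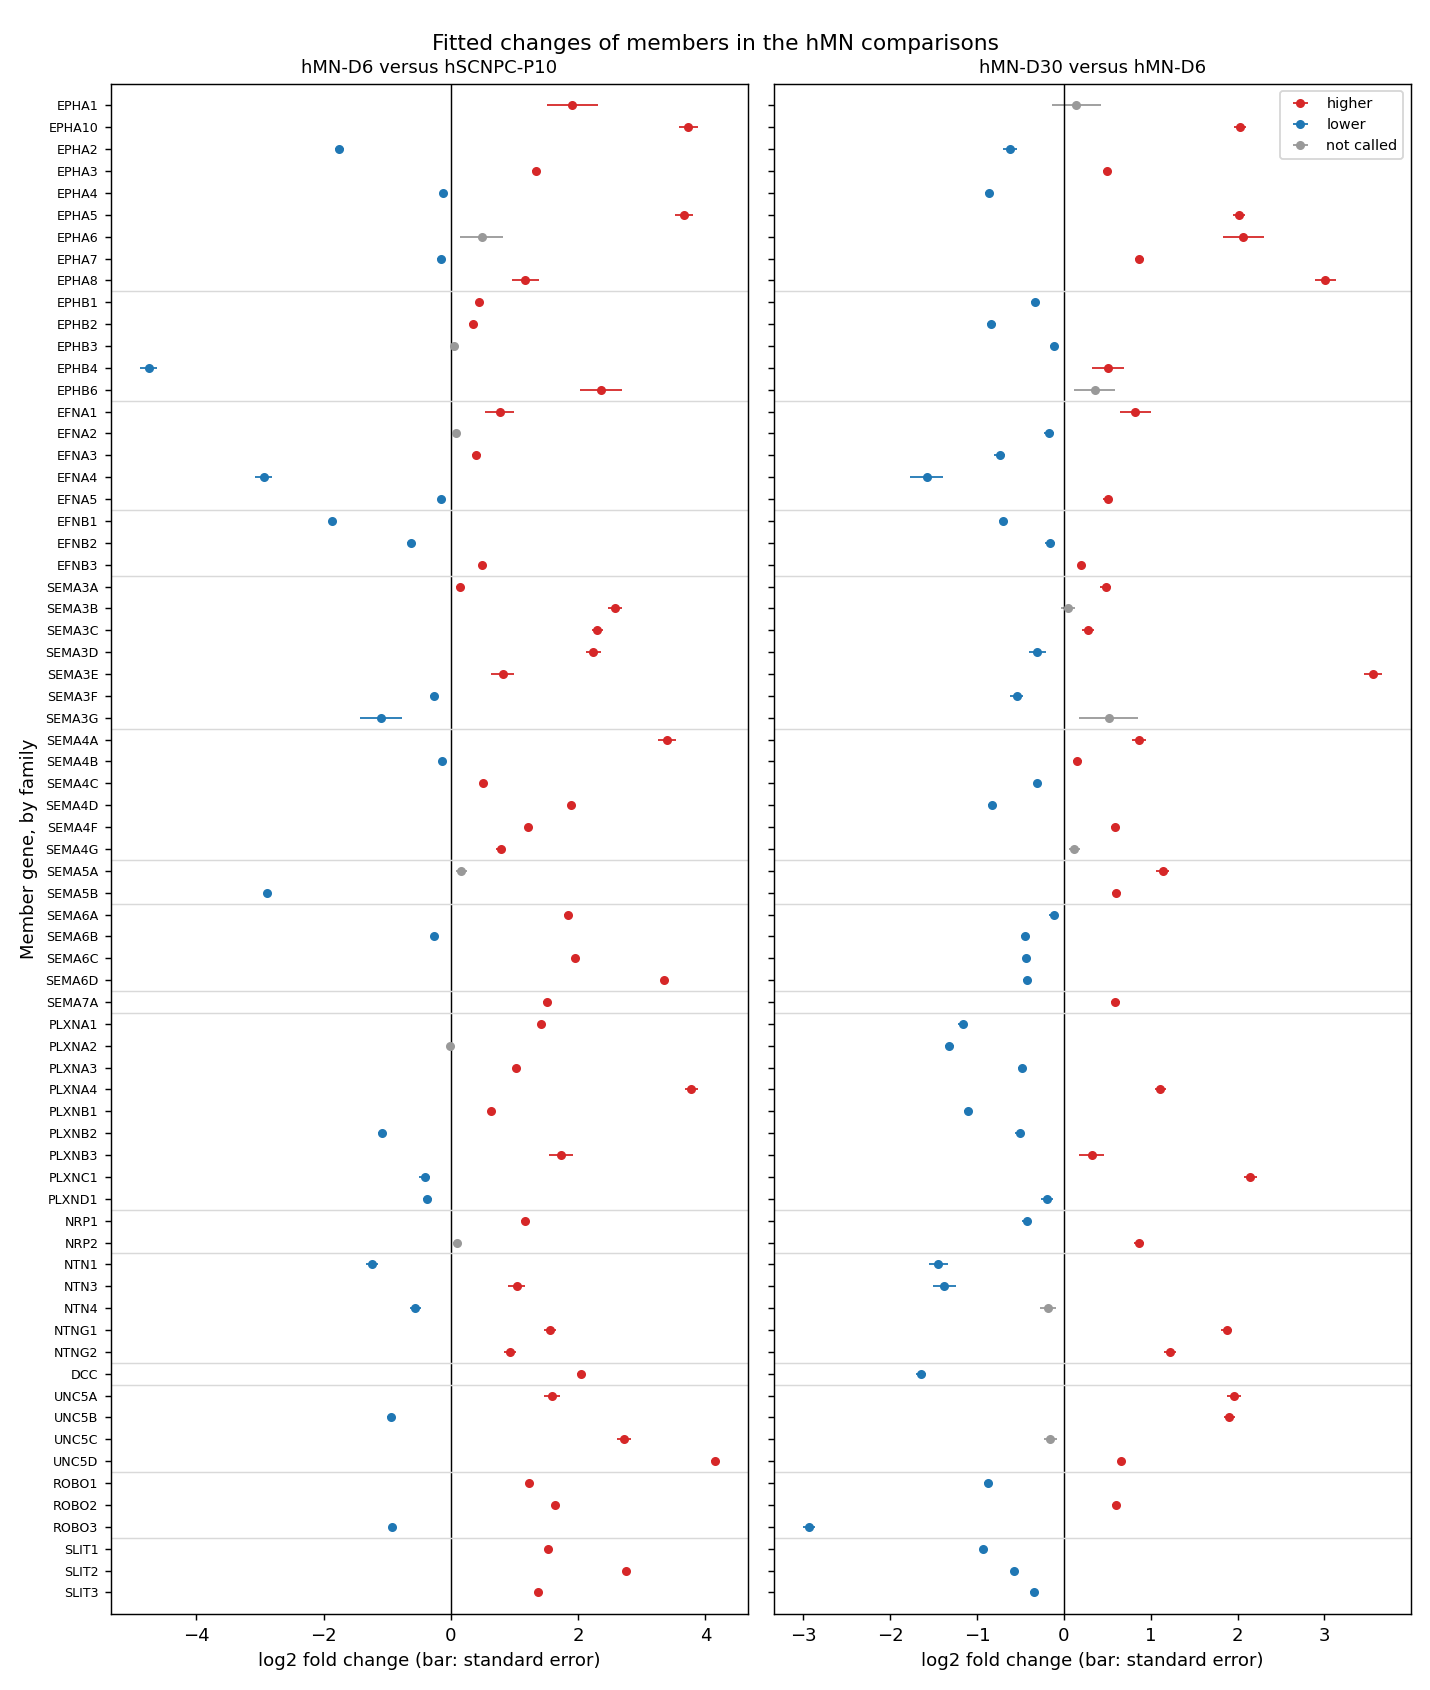
Fitted log2 fold change (points) with its standard error (bars) of the 69 tested members, by family, at hMN-D6 versus hSCNPC-P10 (left) and at hMN-D30 versus hMN-D6 (right), red where called higher, blue where called lower and grey where not called. All 3 Slits lie right of 0 on the left panel and left of 0 on the right panel, and ROBO3 lies left of 0 on both.

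Class 3 semaphorins are secreted, and at hMN-D6 versus hSCNPC-P10 5 of the 7 were called higher and 2 lower (38.5% and 36.7% of all genes). SEMA3A, the most abundant of the class per kb over all groups and a repellent read by NRP1, went from 18.4, 18.4 and 19.6 CPM at hNMP-D4 to 109.7, 101 and 106 CPM at NeuDet-D6 (log2 fold change 2.43 ± 0.08, adjusted p = 9.96e-34). It then fell to 16.98, 16.95 and 16.6 CPM at hSCNPC-P5 (log2 fold change -2.61 ± 0.08, adjusted p = 1.22e-34). SEMA3A was thus higher at NeuDet-D6 than at hNMP-D4 before it and hSCNPC-P5 after it. SEMA3C, known for its part in heart outflow tract formation, went from 1.63, 1.71 and 1.56 CPM in hESC to 18.8, 15.8 and 8.89 CPM at hNMP-D4 (log2 fold change 3.12 ± 0.20, adjusted p = 5.19e-18). It went from 6.05, 5.50 and 4.96 CPM at hSCNPC-P10 to 29.4, 29.4 and 27.7 CPM at hMN-D6 (log2 fold change 2.30 ± 0.09, adjusted p = 7.42e-26). SEMA3F, a repellent read by NRP2, was called lower with passage. It stood at 22.99, 19.96 and 21.02 CPM at P5, 28.1, 29.6 and 26.99 at P10, 7.58, 7.12 and 6.16 at P20 and 0.858, 0.394 and 0.976 at P40 (log2 fold change -1.99 ± 0.13, adjusted p = 3.35e-19, and log2 fold change -4.74 ± 0.18, adjusted p = 6.94e-29).

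NRP2, the receptor of SEMA3F, rose over the same passages. It first fell from 224, 199 and 230.1 CPM at NeuDet-D6 to 10.6, 11.6 and 9.97 CPM at hSCNPC-P5 (log2 fold change -4.30 ± 0.09, adjusted p = 1.35e-41). It stood at 32.2, 30.5 and 32.7 CPM at P10 and 68.7, 65.6 and 61.1 CPM at P20 (log2 fold change 1.06 ± 0.08, adjusted p = 1.64e-16). It was at 211, 215 and 224 CPM at P40 (log2 fold change 4.36 ± 0.09, adjusted p = 6.11e-41 against P5). Its hSCNPC-P40 libraries thus lay within the range of those at NeuDet-D6 and above every P10 and P20 library. NRP1, the receptor of SEMA3A, was called lower, with 19.3, 21.03 and 19.4 CPM at P5, 25.1, 26.6 and 25.8 at P10, 7.84, 8.25 and 8.59 at P20 and 4.07, 3.35 and 3.82 at P40 (log2 fold change -1.62 ± 0.11, adjusted p = 1.90e-18, and log2 fold change -2.38 ± 0.12, adjusted p = 1.13e-23). In motor neuron medium NRP1 reached 58.8, 63.03 and 60.2 CPM at hMN-D6 (log2 fold change 1.16 ± 0.06, adjusted p = 1.32e-24).

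SEMA3E, which binds PLXND1 without a neuropilin, was highest at hNMP-D3 (61.04 ± 1.17 CPM). It fell from 51.3, 71.01 and 56.4 CPM at hNMP-D4 to 1.47, 1.76 and 1.605 CPM at NeuDet-D6 (log2 fold change -5.27 ± 0.15, adjusted p = 1.17e-34). It rose from 1.97, 2.14 and 2.33 CPM at hMN-D6 to 24.8, 23.4 and 28.3 CPM at hMN-D30 (log2 fold change 3.56 ± 0.10, adjusted p = 1.51e-33). SEMA3B and SEMA3D were highest in hMN groups, at 21.7 ± 1.17 CPM (hMN-D42) and 12.9 ± 0.753 CPM (hMN-D6). SEMA3G, known from blood vessels, was the lowest of the class per kb over all groups. It stood at 1.10, 0.982 and 0.658 CPM at hSCNPC-P10 and 0.548, 0.471 and 0.34 CPM at hMN-D6 (log2 fold change -1.09 ± 0.33, adjusted p = 0.00282).

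Of the 13 membrane-bound semaphorins, 9 were called higher and 3 lower at hMN-D6 versus hSCNPC-P10 (38.5% and 36.7% of all genes). SEMA5B, the more abundant SEMA5 per kb over all groups, was the one that fell most. It went from 11.9, 11.5 and 13.6 CPM at NeuDet-D6 to 272, 284 and 285 CPM at hSCNPC-P5 (log2 fold change 4.55 ± 0.09, adjusted p = 1.51e-41). It then fell from 301, 274 and 300.1 CPM at hSCNPC-P10 to 38.5, 41.9 and 44.5 CPM at hMN-D6 (log2 fold change -2.88 ± 0.05, adjusted p = 2.86e-43). SEMA5A, its lower relative per kb, went from 61.9, 53.4 and 75.8 CPM at NeuDet-D6 to 18.96, 22.1 and 21.5 CPM at hSCNPC-P5 (log2 fold change -1.57 ± 0.12, adjusted p = 4.05e-15). SEMA5A was not called at hMN-D6 versus hSCNPC-P10.

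SEMA6 genes are known as ligands of A-type plexins, and 3 of 4 rose at hMN-D6 versus hSCNPC-P10 (38.5% of all genes). SEMA6D, the lowest of them per kb over all groups, went from 28.1, 28.2 and 26.4 to 279, 304 and 302 CPM (log2 fold change 3.35 ± 0.05, adjusted p = 1.96e-46). SEMA6C averaged 50.5 ± 1.498 and 204 ± 2.93 CPM. SEMA6A was highest before neural determination and averaged 584 ± 57.1 CPM in hESC, 747 ± 5.66 CPM at hNMP-D1, 36.8 ± 1.36 CPM at hSCNPC-P10 and 139 ± 13.3 CPM at hMN-D6. SEMA6A thus came back to part of its early level in hMN cells. SEMA6B, the most abundant of the 4 per kb over all groups, was at 292, 269.7 and 285 CPM at hSCNPC-P10, its highest group, and 239.6, 258 and 241 CPM at hMN-D6 (log2 fold change -0.27 ± 0.04, adjusted p = 9.35e-08).

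SEMA4 genes bind mainly B-type plexins, and 5 of 6 rose at hMN-D6 versus hSCNPC-P10 (38.5% of all genes). SEMA4C, the most abundant SEMA4 per kb over all groups, went from 159, 152 and 158 to 221, 238 and 242 CPM (log2 fold change 0.51 ± 0.04, adjusted p = 4.94e-16). The group means of SEMA4B ran from 38.5 CPM at hSCNPC-P30 to 90.3 CPM in hESC. SEMA4D, a ligand of PLXNB1, averaged 57.03 ± 3.72 CPM at hSCNPC-P10 and 224 ± 11.5 CPM at hMN-D6. SEMA4A, the lowest per kb over all groups, went from 6.42, 7.37 and 5.46 CPM at hNMP-D4 to 0.113, 0.214 and 0.306 CPM at NeuDet-D6 (log2 fold change -5.01 ± 0.29, adjusted p = 2.57e-21). Its mean was 26.1 ± 1.27 CPM at hMN-D24. SEMA4F was highest at hMN-D30 (89.7 ± 0.865 CPM), SEMA4G at hMN-D24 (35.1 ± 1.81 CPM, with 28.0% of its exon shared with MRPL43 and another gene) and SEMA7A, a lipid-anchored semaphorin, at hMN-D42 (60.3 ± 0.742 CPM). SEMA7A went from 11.97, 11.3 and 13.4 CPM at hSCNPC-P10 to 37.5, 35.9 and 37.02 CPM at hMN-D6 (log2 fold change 1.51 ± 0.06, adjusted p = 1.76e-26).

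Plexins are the signalling receptors for semaphorins, and PLXNA1 at hMN-D6 had the highest group mean per kb of all members (163 CPM per kb). PLXNA1 was at 661, 618 and 684 CPM at hSCNPC-P10 and 1669, 1897 and 1936 CPM at hMN-D6 (log2 fold change 1.41 ± 0.05, adjusted p = 9.29e-28). Its mean was 928 ± 41.4 CPM at hMN-D12, below every hMN-D6 library. PLXNA2 rose at earlier steps as well. It went from 5.58, 6.05 and 6.35 CPM in hESC to 36.1, 43.9 and 42.9 CPM at hNMP-D4 (log2 fold change 2.76 ± 0.12, adjusted p = 4.27e-25). It went from 25.2, 34.6 and 34.2 CPM at NeuDet-D6 to 378, 419 and 392 CPM at hSCNPC-P5 (log2 fold change 3.71 ± 0.09, adjusted p = 3.37e-35). It stood at 429, 513 and 512 CPM at hMN-D6 and 201, 189 and 196 CPM at hMN-D30 (log2 fold change -1.32 ± 0.05, adjusted p = 1.70e-24).

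PLXNA4, a partner of NRP1 in the response to SEMA3A, was highest in the later hMN groups. It was at 3.17, 3.93 and 4.76 CPM at hSCNPC-P10, 51.5, 59.9 and 58.3 CPM at hMN-D6 (log2 fold change 3.78 ± 0.10, adjusted p = 6.23e-24) and 126, 119 and 124 CPM at hMN-D30 (log2 fold change 1.11 ± 0.06, adjusted p = 1.15e-15). The hSCNPC-P40 libraries held 0.375, 0.46 and 0.382 CPM. PLXNC1, a receptor of SEMA7A, rose from 11.1, 12.2 and 9.75 CPM at hMN-D6 to 50.2, 44.96 and 52.6 CPM at hMN-D30 (log2 fold change 2.15 ± 0.07, adjusted p = 1.13e-30). No library of PLXNA4 overlapped between the hMN groups compared. PLXNB2 was highest at NeuDet-D4 (504 ± 19.02 CPM), PLXNB1 at hMN-D6 (284 ± 1.93 CPM), PLXNA3 at hMN-D6 (282 ± 14.6 CPM) and PLXND1 at NeuDet-D1 (219.7 ± 12.3 CPM). PLXND1 stood at 22.9, 24.7 and 22.004 CPM at hSCNPC-P5 and 46.4, 44.2 and 45.3 CPM at hSCNPC-P40 (log2 fold change 0.99 ± 0.10, adjusted p = 3.32e-12).

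Some of the members that rose between hMN-D30 and hMN-D42 are known from other cells than neurons. PLXNB3, the lowest plexin per kb over all groups, went from 4.84, 5.52 and 5.15 to 14.04, 13.6 and 16.1 CPM (log2 fold change 1.52 ± 0.12, adjusted p = 1.97e-14), with 20.4% of its exon shared with SRPK3. EPHB4 went from 4.56, 3.71 and 6.49 to 14.6, 13.2 and 11.8 CPM (log2 fold change 1.44 ± 0.14, adjusted p = 2.38e-08). EPHA2 went from 15.8, 14.1 and 17.8 to 41.4, 38.1 and 41.8 CPM (log2 fold change 1.37 ± 0.07, adjusted p = 1.56e-19). PLXND1 is the receptor of SEMA3E. It went from 22.2, 23.7 and 26.2 to 49.5, 48.7 and 50.6 CPM (log2 fold change 1.07 ± 0.07, adjusted p = 2.29e-17). EPHB4 and PLXND1 are known from blood vessels and EPHA2 from epithelia. These 4 genes were picked by a rule that required no overlap between the groups, so their lack of overlap is not a separate result. Over the whole path the highest mean of EPHB4 was at hNMP-D1 (238 CPM) and that of EPHA2 at NeuDet-D4 (264 CPM). That of PLXND1 was at NeuDet-D1 (220 CPM) and that of PLXNB3 at hMN-D42 (14.6 CPM).

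Markers of other cell types moved in the same libraries. The 6 glial markers summed to 23.5, 23.8 and 33.3 CPM at hMN-D30 and 107, 116 and 116 CPM at hMN-D42, with SOX10 at 11.9 ± 3.62 and 46.4 ± 2.82 CPM and GFAP at 0.749 ± 0.215 and 8.73 ± 0.0985 CPM. The 6 mesenchymal markers, led by COL1A1, summed to 105, 118 and 347 and 886, 773 and 849.9 CPM, and the third hMN-D30 library, the highest of its group for these, also held the most EPHB4, EPHA2 and PLXND1 of its group. Without that library the log2 fold change at hMN-D42 versus hMN-D30 was 1.69 for EPHB4, 1.45 for EPHA2 and 1.14 for PLXND1. All 3 changes were larger without it than with it, which follows from leaving out the highest library of the lower group. All 6 endothelial markers were below 1 CPM in both groups, and the pan-neuronal markers summed to 3713, 3786 and 3792 and 3141, 3302 and 3255 CPM. Cycling markers summed to 57.1, 57.4 and 68.5 CPM at hMN-D30 and 111, 120.2 and 119 CPM at hMN-D42, with all 6 called higher, and 3 floor plate markers were called higher and 0 lower. Neural progenitor markers summed to 375, 359 and 359 CPM at hMN-D30 and 438, 433 and 428 CPM at hMN-D42, with 3 called higher and 1 lower. The part of these markers in the results was not tested.

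Guidance genes outside these families were counted at the same steps. Of 16 other guidance genes (among them neogenin, RGMs, L1-type adhesion molecules and FLRTs), 13 were called higher and 1 lower at hSCNPC-P5 versus NeuDet-D6 (28.8% and 30.6% of all genes). Their median log2 fold change was 1.71 against -0.02 over all genes. CNTN2 (7.09 ± 0.16 SE) and BOC (2.96 ± 0.09) were among those that rose, and FLRT2 (-4.04 ± 0.13) was the one that fell. At hMN-D6 versus hSCNPC-P10, 10 rose and 4 fell (38.5% and 36.7% of all genes). CHL1 (3.88 ± 0.08) and L1CAM (2.62 ± 0.05) were higher. BOC (-3.45 ± 0.06), a Shh and netrin-pathway receptor of commissural neurons, and LRIG1 (-3.41 ± 0.05) were lower.

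Of 42 intracellular effectors that carry guidance signals to the cytoskeleton, 26 were called higher and 12 lower at hMN-D6 versus hSCNPC-P10 (38.5% and 36.7% of all genes). Their median log2 fold change was 0.42 against 0.08 over all genes. At hMN-D30 versus hMN-D6, 18 were higher and 21 lower (32.9% and 30.5% of all genes). DOCK4 (2.59 ± 0.05), ABLIM3 (1.56 ± 0.16), CHN2 (1.55 ± 0.16) and DPYSL2 (1.52 ± 0.04), the collapsin response mediator downstream of SEMA3A, rose at hMN-D6, and DOCK1 (-3.15 ± 0.07) and TIAM2 (-1.98 ± 0.08) fell. In the early step from hESC to hNMP-D4 15 effectors were higher and 18 lower (26.7% and 27.6% of all genes), with a median log2 fold change of -0.09. Of the other guidance genes 9 were higher and 7 lower, with a median of 0.72, against 0.01 over all genes.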

How the data were processed

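Total RNA from the 66 libraries was prepared with a NEBNext Ultra RNA kit and sequenced. Per the methods and the labels, the authors used fastp for trimming, HISAT2 2.1.0 for alignment (build hg38) and featureCounts 1.5.3 with a GENCODE annotation, and deposited raw counts per gene in 2 tables of 48 and 18 libraries. The annotation release and the strand setting are not given in the sources used here. GENCODE v44 supplied names, coordinates and exon lengths for 99.44% of the 60603 gene identifiers.

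The counts were tested with edgeR 4.0.16 (R 4.3.3), using TMM scaling, filterByExpr and the robust quasi-likelihood fit, with 1 coefficient per group. The stem and progenitor comparisons came from the 48 libraries of the first table (21597 genes), and the hMN comparisons from the 18 hMN libraries and hSCNPC-P10 (21175 genes). P-values were adjusted over all genes tested. DESeq2 1.42.0, other scaling, other filters, pairwise fits, a replicate block and leaving out each library were the alternatives. The fit was tested on simulated data.

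The members and gene lists were chosen with earlier results of these data known. Values in every library are given for up to 4 members per direction and comparison with the largest fitted change, if every library of the higher group had at least 5 CPM and lay above the other group, for a list of textbook partners, and for the highest and lowest member of each family per kb. For the members named by largest change, lack of overlap between the compared groups was thus a condition and not a result. No pair of libraries within a group was identical, and all were kept. Of the 70 members, 59 matched the RefSeq promoter table used, and the other members were not searched.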

Additional observations from a re-analysis of the deposited data

How the results depend on the processing

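All 16 counts of members called higher or lower stayed within 1.5 times their value under DESeq2, RLE scaling, the looser and stricter filters, pairwise fits, the replicate block and the omission of any 1 library. Without 1 library, members called higher and lower ranged from 20 to 23 and 30 to 34 at hNMP-D4 versus hESC, 29 to 32 and 25 to 26 at NeuDet-D6 versus hNMP-D4, 38 to 40 and 18 to 19 at hSCNPC-P5 versus NeuDet-D6, 12 to 13 and 28 to 34 at hSCNPC-P20 versus hSCNPC-P10, 11 to 12 and 31 to 34 at hSCNPC-P40 versus hSCNPC-P5, 42 to 43 and 17 to 20 at hMN-D6 versus hSCNPC-P10, 27 to 29 and 30 to 34 at hMN-D30 versus hMN-D6, and 15 to 18 and 30 to 31 at hMN-D42 versus hMN-D30. No call on a member reversed, and every called change that is given with its adjusted p in the report kept its call under all of these alternatives.

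Replicate numbers do not mark a stated pairing, and same-numbered libraries deviated together with correlations of only -0.08 to 0.13. With the replicate number as a block, 14 members in place of 13 were higher at hSCNPC-P40 versus hSCNPC-P5, 32 in place of 31 were lower at hMN-D42 versus hMN-D30, and no other member call changed.

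The log2 ratio of family sums at hMN-D30 to hESC depended on dividing by exon length. For EPHA it was -0.71 per kb and 0.02 without that division, a reversal. Without the division it was 0.52 for EPHB (0.36 per kb), 0.97 for EFNA (0.61), 0.14 for SEMA4 to SEMA7 (0.39), 1.40 for PLXN (1.15), 2.63 for NTN (2.44), 1.18 for DCC and UNC5 (0.89) and 0.83 for ROBO (0.60), and with RLE scaling SEMA4 to SEMA7 gave 0.42. Depth limits the members listed near 0, such as ROBO4 and late-passage EPHB6.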
